A study of Mus musculus with 4 samples.

Results

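A noncoding transcript of the ceruloplasmin gene Cp was followed through osteoclast formation, from RAW264.7 cells at 0 h to activated osteoclasts at 96 h. It was chosen by its gene symbol: of 3937 probes with 3826 gene symbols in the study's lists of changed long noncoding RNAs, 1 carried the symbol Cp, out of 60930 probes on the array. Those lists were held here in part: most lists of lower probes, and part of the 96 h list of higher probes, were shortened. The named probes thus lean to those higher at 24 h and 72 h, and counts among them carry this lean. The Cp probe stood in the list of probes higher at 72 h, so its values on these arrays chose it. Its levels are given as a description, without a test. The processed signal of the probe was 42.6, 78.9, 1735 and 7.21 at 0, 24, 72 and 96 h. The signal was thus high on the 72 h array, low but detected on the 0 h and 24 h arrays, and not well above background on the 96 h array.

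Ceruloplasmin is a copper-carrying ferroxidase: it oxidises ferrous to ferric iron, the form that binds transferrin in plasma, and so works together with the iron exporter ferroportin. The liver secretes most of the plasma protein, and macrophages also make it. It is an acute phase protein, which inflammatory signals raise. In osteoclasts iron is needed for the many mitochondria of the cell, and transferrin uptake is known to rise as they mature.

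The cells were RAW264.7, a mouse macrophage line that forms multinucleated osteoclasts when RANKL is added, and not primary bone marrow cells. RNA was extracted from the cells, and Cy3-labelled RNA made from it was read on 1-colour arrays with probes for long noncoding RNAs and mRNAs. There was 1 array for each group: monocyte (0 h), pre-osteoclast (24 h), mature osteoclast (72 h) and activated osteoclast (96 h). The labels give RANKL at 100 ng/mL and M-CSF, a macrophage growth factor, at 50 ng/mL for every group, the first with an induction of 0 h, so the label of that group amounts to cells before induction. With 1 array for a group there was no spread between replicates, no p-value could be had, and the precision of every difference is limited by the number of arrays. By the first part of the barcode in the file headers, the 0 h and 72 h arrays may share a slide, called slide 1 here. The 24 h and 96 h arrays may share another, called slide 2. Below, slide always stands for this reading of the barcode. Under it, in 4 of the 6 comparisons time and slide cannot be told apart. Between 58.9% and 66.8% of the probes were well above background on an array. This call is the scanner software's own, made against the background that it estimated for the spot. Of 10 osteoclast markers, among them Acp5, Ctsk and Calcr, Mmp9 was the only one with a named probe. That probe was for a noncoding transcript, so the labelled stages could not be checked here against their defining mRNAs. Its normalized log2 level was lowest at 72 h, at 6.35 against 8.90 at 0 h. A probe for a noncoding transcript of the macrophage gene Irf8 was highest at 72 h, at 11.06 against 9.18 at 0 h. The study itself followed the stages by TRAP staining, fusion and pit assays and the expression of osteoclast genes.

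In the study's list the transcript is ENSMUST00000150264 of the gene ENSMUSG00000003617, on the plus strand of chromosome 3, chr3:19969842-19989065 in the build GRCm38. It is classed as exon sense-overlapping, which means that it shares strand and exon sequence with the coding gene. Its genomic span was 19224 bp and its RNA 3152 bases long, or 16.4% of the span. In RefSeq annotation of the same build the Cp gene runs from 19956933 to 20009750, also on the plus strand, and has 6 coding transcripts. The noncoding transcript began 12909 bp inside the start of the gene and ended 20685 bp before its end, so it lay wholly inside the gene and covered 36.4% of it. The list places the probe at 19988907 to 19989052, an interval that ended 13 bp before the end of the transcript. That interval is 146 bp long, more than the probe itself, and the list does not say how the probe lies in it.

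**Figure D1:**
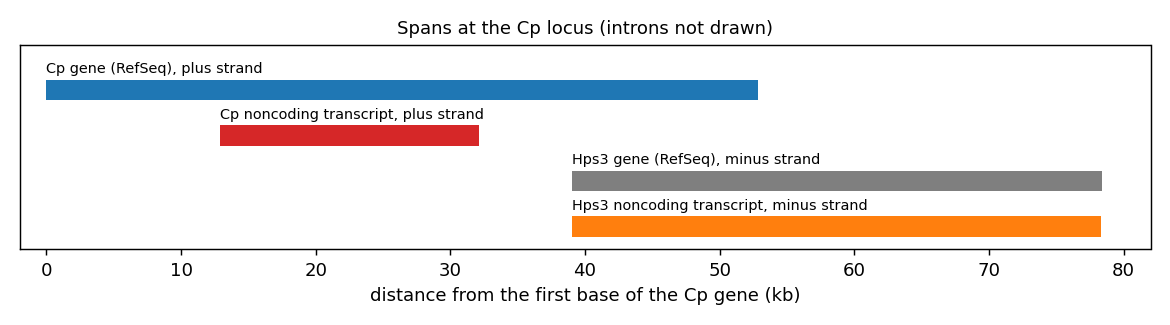
Spans of the Cp gene, the noncoding Cp transcript, the Hps3 gene on the other strand and its listed noncoding transcript, as distance in kb from the first base of the Cp gene in GRCm38. Each bar runs from start to end without its introns drawn, and the noncoding Cp transcript lies inside the Cp gene and ends before the Hps3 gene.

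The sequence of the probe is shown because it is all that the array read of this transcript. The capitals mark AGGTAAG, letters also common where an exon meets the 5′ end of an intron.
Cp: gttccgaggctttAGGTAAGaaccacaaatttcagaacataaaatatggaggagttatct
The letters AGGTAAG stood at bases 14 to 20 of the 60. Among the listed probes 9 of 3937 held them, or 0.229%, and among those of listed exon sense-overlapping transcripts 3 of 947, or 0.317%. Their reverse complement stood in 14 listed probes, or 0.356%. The match is a description of the letters and not evidence of a splice site. The probe had a GC content of 36.7%, against a median of 43.3% over the listed probes. The longest run of bases that it shared with any other listed probe was 12, and 11 on the opposite strand. Whether the probe also pairs with coding Cp mRNA was not tested, and the coding mRNA was not analysed here, so each value below is that of the probe.

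After quantile normalization over the 4 arrays, the level of the Cp probe was 5.61, 6.28, 10.78 and 2.62 (log2) at 0, 24, 72 and 96 h. From high to low, the order of the levels was 72 h, 24 h, 0 h and 96 h, and how far neighbours in it lie beyond the spread between cultures was not measured. Each array held 1 spot of the probe, in the same place on each, and no spot was marked as an outlier or saturated. The error that the scanner software gives for the spot came to 15.8%, 13.7%, 10.0% and 100.3% of its signal at 0, 24, 72 and 96 h. This error describes the spot alone and says nothing of how another culture would have differed. At 96 h the signal after background subtraction was -5.74, so the level there is only a bound.

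The unprocessed spots showed the same order between the arrays where the probe was detected. The median signal of the spot was 98, 147.5, 1770 and 63 at 0, 24, 72 and 96 h, over a local background of 35, 28, 34 and 27. The local background thus lay between 27 and 35 on every array, while the spot itself differed by far more. The software took off more than this local background, since at 96 h the subtracted signal was -5.74. The call at 96 h thus did not rest on the local background alone. Of the 8 spots next to the Cp spot, 3 were well above background at 0 h and 72 h, and their differences between 72 h and 0 h ran from -2.01 to -0.23 on the log2 scale. None of those neighbouring spots was brighter at 72 h, and the other 5 failed that call on every array.

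**Figure D2:**
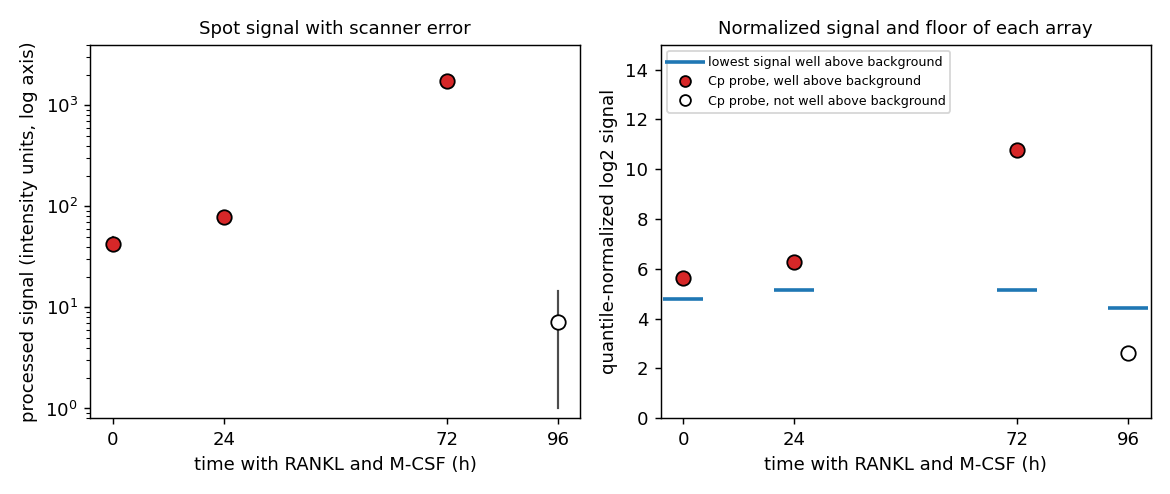
Cp probe on each array by time of induction: left, the processed signal on a log axis with the error of the scanner software as bars, smaller than the points at 0 h, 24 h and 72 h and drawn down to 1 at 96 h; right, the normalized log2 level, with the lowest signal well above background on each array as a blue line. Filled points are well above background and the open point is not, and the 72 h array stands at 1735 against 42.6 and 78.9 on the earlier ones.

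Between 0 h and 24 h, from monocytes to pre-osteoclasts, the level of the Cp probe was 0.67 higher on the log2 scale, or 1.59-fold, with a combined error of the spots of 0.30. This was below the 2-fold limit used for all comparisons, past which 3.37% of 39355 probes were higher at 24 h and 6.12% lower. A difference at least as large in the same direction was held by 3398 probes, or 8.63%. With normexp background correction, which models the background in place of subtracting it, the difference was 0.28. With the unsubtracted median signal it was 0.31, so both were smaller than 0.67. The error of 0.30 is that of the processed signal and was not computed for these settings. The spread between cultures was not measured. The comparison crosses slides.

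Between 0 h and 72 h, both on slide 1, the level of the Cp probe was 5.17 higher on the log2 scale, or 36.0-fold, with a combined error of the spots of 0.27. Past 2-fold, 4.32% of 39609 probes were higher at 72 h and 5.29% lower, and since the list of such probes gave the Cp probe, nothing is read from its being among them. A difference at least as large was held by 7 probes, or 0.0177%, of which 1 had a name, V00821, at 5.51. The median size of a difference over probes well above background on both arrays was 0.31. With normexp background correction the difference of the Cp probe was 3.84 and with the unsubtracted median signal 4.01, and each value rests on 1 array against 1.

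Between 24 h and 72 h, from pre-osteoclasts to mature osteoclasts, the level was 4.50 higher, or 22.6-fold, with a combined spot error of 0.25. Of 38991 probes, 8.31% were higher at 72 h past 2-fold and 8.16% lower. Among all of these 14 others differed at least as much in this direction, 2 of them with a name, AK089350 at 6.07 and V00821 at 4.89. The difference was 3.56 with normexp and 3.70 unsubtracted. The comparison shares its 72 h array with the one before it, so the 2 differences are not independent of each other.

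Between 72 h and 96 h, from mature to activated osteoclasts, the probe passed from well above background to not well above background. Its own signal at 96 h was below 4.41 on the log2 scale, the dimmest normalized signal that still counted as well above background on that array, and this floor was used in its place. Against the floor the level at 96 h was at least 82.7-fold lower than at 72 h, a log2 difference of -6.37, which was -4.55 with normexp and -4.89 with the unsubtracted signal. Past 2-fold, 12.9% of 42014 probes were lower at 96 h and 10.9% higher, and 4 probes, or 0.00952%, were lower by at least as much, of which V00821 had a name, at -8.82. The comparison crosses slides.

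At 96 h the probe was also below its level before induction, at least 2.30-fold lower than at 0 h, where 8.43% of 42005 probes were lower past 2-fold and 5.66% higher. In 4 of the 8 alternative ways of processing, this difference was under 2-fold. Within slide 2, the level at 96 h was at least 3.66-fold lower than at 24 h, where 6.5% of 41467 probes were lower past 2-fold and 5.32% higher. With normexp this log2 difference, -1.87, became -0.99, under 2-fold, and with the unsubtracted signal -1.18. The bounds depend on the floor of the 96 h array, which was the lowest of the 4.

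**Figure D3:**
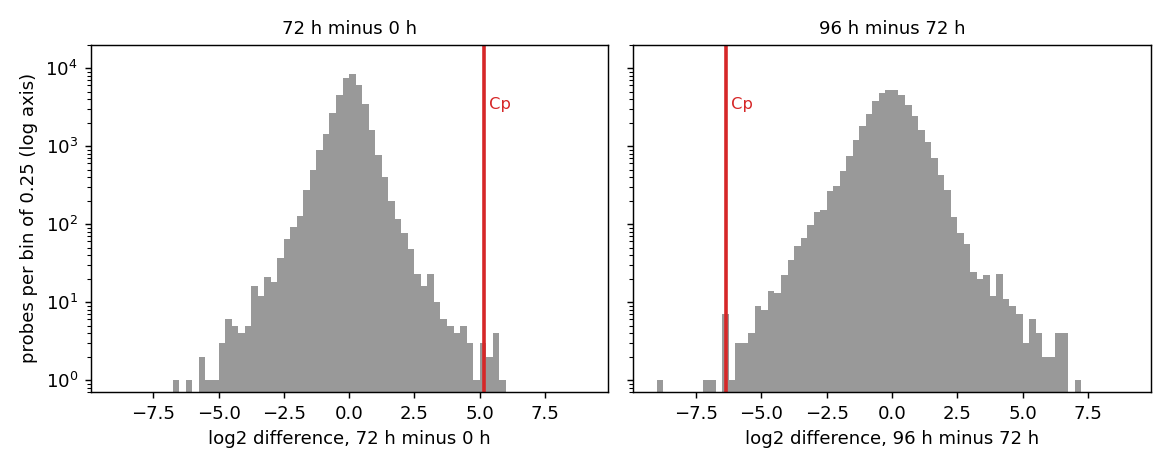
Number of probes, on a log axis, in bins of 0.25 of the log2 difference, for 72 h against 0 h and for 96 h against 72 h, with the Cp probe marked by a line. The Cp probe lies in the outer tail of both, at 5.17 and at a bound of -6.37.

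Set against the higher of the other 3 arrays, which was 24 h, the 72 h level of the Cp probe was 22.6-fold higher. Past 2-fold over each of the other arrays stood 710 of the 36406 probes well above background at 72 h, or 1.95%. Past 4-fold there were 117, past 8-fold 38 and past 16-fold 16. The Cp probe was exceeded by 10 probes, or 0.0275%, and by 1 named probe, V00821. Since the Cp probe came from the list of probes higher at 72 h, this rank is a description only. In bulk RNA, fewer cells that carry a transcript and less of it in each cell cannot be told apart, and the same holds for a rise.

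Among the 663 listed exon sense-overlapping probes well above background at 72 h, the Cp probe had the largest excess over the next highest array. The others closest to it were Dhrs3, at 3.26 on the log2 scale, and Aldh1l2, at 3.04, against 4.50 for Cp. Dhrs3 codes a retinal reductase and Aldh1l2 a mitochondrial folate enzyme. The median of the class was -0.01, and 115 of the 663, or 17.3%, were past 2-fold. The class is made of probes that the study listed as changed on these arrays, so the share is not that of all such transcripts. The place of Cp in it is likewise a description, since its 72 h value chose it.

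The probes whose profile was most like that of Cp were taken by the Euclidean distance over the 4 arrays between log2 values centred on each probe's mean, with values not well above background raised to the floor. The median distance was 4.62 over 3937 named probes and 4.79 over 43189 probes in all. The 8 nearest named probes lay between 1.05 and 1.90, and 29 of all probes were within the distance of the last of them. None of the 8 shared a run of 8 bases with the Cp probe. With 4 arrays the likeness describes only these arrays, and it says nothing of shared function or control.

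The nearest, M13680, is listed by the study as intergenic, at chr12:113420742-113420935. Whether it lies within a known gene was not examined. Its level was 9.67, 10.05, 14.13 and 9.20 (log2) at 0, 24, 72 and 96 h, well above background on each. It was thus highest at 72 h and lowest at 96 h like the Cp probe, with a difference of 21.9-fold between 72 h and 0 h and of 30.4-fold between 72 h and 96 h.

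The next 5, all listed as intergenic, were well above background at 72 h alone, so that the folds against the other arrays are bounds. AK083073 at chr1:73522097-73525460 had a level of 9.34 at 72 h, at least 23.1-fold above 0 h and at least 30.4-fold above 96 h. The transcript humanlincRNA1857 at chr13:45033477-45058912 had a level of 9.28, at least 22.3-fold above 0 h. The transcript mouselincRNA0154 at chr10:24613560-24618859 reached 9.05, AK031769 at chr16:29809389-29812856 reached 8.75, and DQ716714 at chr14:44937341-44937463 reached 8.37. These differ from the Cp probe in that they were not well above background at 0 h and 24 h, and since their values there and at 96 h are the floors of the arrays, their likeness to Cp rests on the 72 h level.

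The other two were measured on all 4 arrays. Gm17089, a natural antisense transcript at chr6:134233158-134243711, had levels of 6.04, 6.84, 9.15 and 4.48 on the log2 scale from 0 h to 96 h, with the same order of arrays as the Cp probe. The Dhrs3 transcript at chr4:144893131-144919972 had levels of 6.18, 6.22, 9.47 and 5.69, and its difference between 72 h and 0 h was 9.81-fold. The difference of the Cp probe between 72 h and 0 h was larger than that of either.

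The probe sequences of the nearest named probe and of the nearest in the same class as Cp are shown beside that of Cp, all without capitals since no shared motif is marked.
M13680: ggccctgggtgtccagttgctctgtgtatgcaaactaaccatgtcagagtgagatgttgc
Dhrs3: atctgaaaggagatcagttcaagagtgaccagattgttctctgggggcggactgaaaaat
Their GC content was 51.7% for M13680 and 45% for Dhrs3, both above that of the Cp probe.

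**Figure D4:**
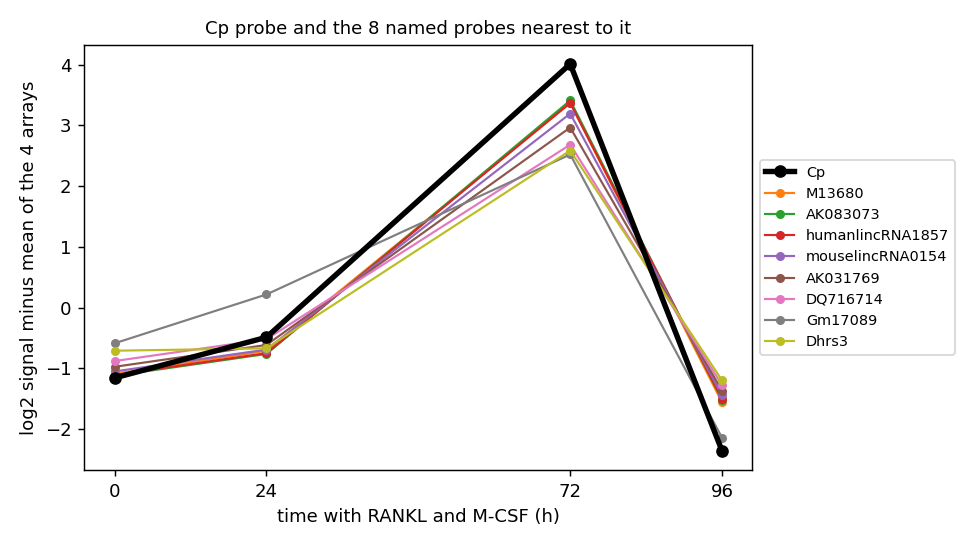
Normalized log2 level, with each probe centred on its mean over the 4 arrays and values not well above background raised to the floor, by time of induction for the Cp probe and the 8 named probes nearest to it. Each line is 1 probe, and every line is highest at 72 h.

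Within 100 kb of the noncoding Cp transcript, 1 other gene had a listed probe, Hps3, which codes a protein needed to make lysosome-related organelles. Its transcript ENSMUST00000130171 lies on the opposite strand at chr3:19995951-20035280, 6886 bp beyond the end of the noncoding Cp transcript, and the Hps3 gene overlaps the Cp gene by 13806 bp. The level of the Hps3 probe was 8.09, 8.56, 8.69 and 9.12 (log2) at 0, 24, 72 and 96 h, well above background on each array. Unlike Cp it was highest at 96 h, by 1.02 over 0 h, and its difference between 72 h and 0 h was 0.60.

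Of 45 genes of iron handling, 6 had a named probe, Cp among them, and each was for a noncoding transcript that shares exons with the coding gene. Of these 6, 4 were highest at 72 h, beside 35.1% of all 3937 named probes and 28.2% of 43190 probes well above background on any array. Cp itself, which was chosen from the list of probes higher at 72 h, is among the 4. The named probes were also listed by the study as changed on these same arrays, so the count is no independent evidence of a direction. Since most lists of lower probes were shortened, the 35.1% and the counts set beside it here and below lean to higher probes. Of 15 genes of copper handling, which include the ATPase that loads ceruloplasmin with copper, none had a named probe.

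The iron carrier lipocalin 2, Lcn2, binds bacterial siderophores that hold iron and is itself an acute phase protein. Its probe had levels of 2.65, 2.60, 7.33 and 2.80 (log2) at 0, 24, 72 and 96 h, well above background at 72 h alone. The level at 72 h was at least 5.75-fold above 0 h and at least 7.56-fold above 96 h. As with Cp, the probe was detected at 72 h and not at 96 h, but it was not detected before 72 h either. Its sequence is shown because Lcn2 and Cp are both acute phase genes that handle iron.
Lcn2: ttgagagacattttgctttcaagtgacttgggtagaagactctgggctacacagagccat

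Slc25a37, mitoferrin 1, carries iron into mitochondria. The probe of its noncoding transcript had levels of 6.86, 7.40, 8.28 and 5.94 from 0 h to 96 h on the log2 scale, so it had the same order of arrays as Cp with smaller differences. It was 2.68-fold higher at 72 h than at 0 h, and 5.05-fold lower at 96 h than at 72 h.

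The ferritin chains store iron. The probe for a transcript of the heavy chain gene Fth1 had levels of 7.33, 6.86, 8.35 and 8.34, with a difference of 1.02 between 72 h and 0 h and a difference of -0.01 between 96 h and 72 h. The probe for a transcript of the light chain gene Ftl1 had levels of 15.46, 13.28, 14.37 and 14.34, highest at 0 h, with a difference of -1.10 at 72 h. The ferritin probes thus differed little between 72 h and 96 h, where the Cp probe went below background. Ferritin has many near-identical pseudogenes, and which copies these probes read was not tested.

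Transferrin, Trf, carries the iron that ceruloplasmin oxidises. The level of its probe was 5.69, 6.70, 5.76 and 6.97 (log2) at 0, 24, 72 and 96 h, higher at 24 h and 96 h than at 72 h, with a difference of 0.07 between 72 h and 0 h. Its higher arrays are both on slide 2 and its lower ones on slide 1.

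Of 41 acute phase and inflammatory genes, 3 had a named probe, Lcn2, Ccl4 and Socs3, and 2 of them were highest at 72 h, beside the 35.1% of named and 28.2% of all probes given above. A noncoding transcript of Ccl4, a chemokine, had probe levels of 12.49, 13.09, 14.04 and 12.71 on the log2 scale, 1.55 higher at 72 h than at 0 h and 1.33 lower at 96 h than at 72 h. A noncoding transcript of Socs3, an inhibitor of cytokine signalling, had probe levels of 8.46, 8.97, 9.09 and 9.53 and was highest at 96 h.

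Of 26 osteoclast genes, 2 had a named probe and neither was highest at 72 h, where 35.1% of named and 28.2% of all probes were highest. The probe for a noncoding transcript of Mmp9, a matrix protease of osteoclasts, had levels of 8.90, 7.42, 6.35 and 8.06 at 0, 24, 72 and 96 h, so it was lowest on the array where Cp was highest. The probe for a transcript of Ppargc1b, a coactivator of mitochondrial genes, had levels of 7.26, 6.79, 7.99 and 9.81, with a difference of 2.55 between 96 h and 0 h. Both probes were higher at 96 h than at 72 h, the reverse of Cp.

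Of 3 negative regulators of osteoclast formation, 2 had a named probe, and both were highest at 72 h, as were 35.1% of named and 28.2% of all probes. The probe for a transcript of Irf8, also a macrophage transcription factor, had levels of 9.18, 9.53, 11.06 and 9.27, which is 1.87 higher at 72 h than at 0 h. The probe for a transcript of Bcl6, a transcriptional repressor, had levels of 7.76, 8.50, 9.40 and 6.55, which is 1.65 higher at 72 h than at 0 h and -2.85 at 96 h against 72 h. The Bcl6 probe had the same order of arrays as Cp. These values move with the 72 h array beside the Cp probe, and their part in its level was not tested.

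**Figure D5:**
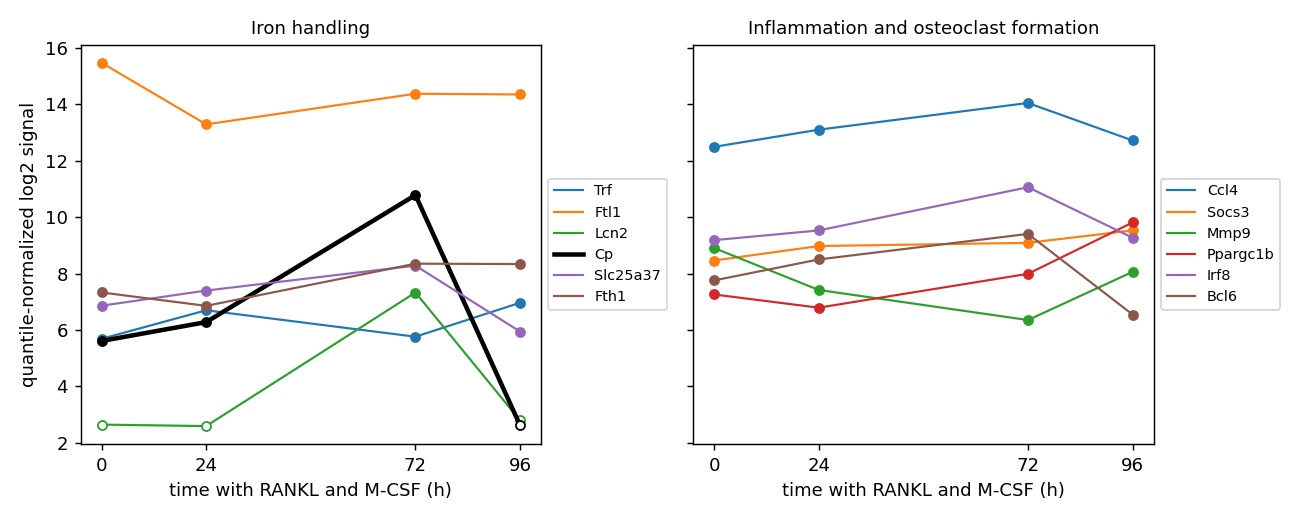
Normalized log2 level by time of induction for the named probes of the iron handling, acute phase, osteoclast and negative regulator lists, with the Cp probe. Each line is 1 probe, open points are not well above background, and the black line of Cp goes from 10.78 at 72 h to 2.62 at 96 h.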

How the data were processed

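Spot intensity values were made by the authors in Agilent Feature Extraction (11.0.1.1 per the file headers). The deposited processed signal is an intensity after background subtraction, and the deposited table of log2 values was quantile normalized by the authors, differing by at most 0.0312 from the values computed here. Control and outlier spots were left out, log2 signals of a probe's spots were averaged and the 4 arrays quantile normalized. Comparisons took probes well above background on at least 1 of their 2 arrays. A dim value was set to the floor of its array, the dimmest normalized signal called well above background, or 4.81, 5.17, 5.16 and 4.41 (log2) at 0, 24, 72 and 96 h.

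Names, coordinates and probe sequences came from the study's lncRNA lists, held here in part. Their fold change and p-value columns were not used. No file used here pairs mRNA probes with names. Named are Cp, listed genes within 100 kb, list members with a listed probe and the 8 nearest named probes. AK089350, V00821 and Aldh1l2 fall outside this rule and were named after their values were seen. One gene of the iron handling list is not reported here and was left out of its counts. The transcript, the lists and the tests were chosen with earlier results of these data known. Functions were tested on simulated data. Gene spans are from RefSeq annotation of GRCm38, which 98.9% of 1596 listed gene names matched in position.

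Alternatives were scaling to the 75th percentile or the median, cyclic loess, the authors' values, normexp with an offset of 50, the unsubtracted median signal, outliers kept, no floor, a 4-fold limit and a filter on both arrays. Python 3.11.15, numpy 2.4.6, pandas 2.3.3, matplotlib 3.10.9, R 4.3.3 and limma 3.58.1 were used.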

Additional observations from a re-analysis of the deposited data

Results flagged for a closer look

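The Cp probe was 5.17 higher at 72 h than at 0 h and lower at 96 h than at 0 h, by a bound of -1.20, both on the log2 scale. It drew attention because the differences of mature and of activated osteoclasts from the same 0 h array have opposite directions. With 1 array in each group the difference between them was not tested, and the 96 h value crosses slides.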

How the results depend on the processing

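The differences of the Cp probe kept their direction under all 48 alternatives, but these are not 48 independent checks. No Cp spot was an outlier, and the floor did not enter the comparisons without 96 h, so some alternatives could hardly move the probe. In the main processing the floor of the 96 h array, 4.41, was the lowest. The direction of the comparisons with 96 h thus followed from the calls of well above background. Normexp background correction gave 0.28 for 24 h against 0 h, 3.84 for 72 h against 0 h, -0.70 for 96 h against 0 h, 3.56 for 72 h against 24 h, -4.55 for 96 h against 72 h and -0.99 for 96 h against 24 h, all on the log2 scale. In the same order the unsubtracted median signal gave 0.31, 4.01, -0.88, 3.70, -4.89 and -1.18. Cyclic loess gave 5.50 for 72 h against 0 h, 4.83 for 72 h against 24 h and -6.69 for 96 h against 72 h. Scaling to the 75th percentile gave -0.89 for 96 h against 0 h, -6.19 for 96 h against 72 h and -1.56 for 96 h against 24 h, and scaling to the median gave -0.93 for 96 h against 0 h and -1.59 for 96 h against 24 h. Without the floor the values were -2.99 for 96 h against 0 h, -8.16 for 96 h against 72 h and -3.66 for 96 h against 24 h, which are not bounds, since they use a signal not well above background. The cause of the other changes was not tested. Of the scalings, the 75th percentile moved the median of all probes by 0.13 between 96 h and 72 h, and no other shift passed 0.1.

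The numbers of probes past 2-fold were 3732 for 24 h against 0 h, 3806 for 72 h against 0 h, 5916 for 96 h against 0 h, 6419 for 72 h against 24 h, 9999 for 96 h against 72 h and 4901 for 96 h against 24 h. In this order they were 2131, 1668, 3038, 3481, 5262 and 2508 with normexp, 2405, 1907, 3361, 3894, 5847 and 2896 with the unsubtracted signal, and 831, 521, 1025, 900, 1894 and 916 past 4-fold. The share of higher probes among these went from 35.5% to 20.9% with normexp and 23.5% unsubtracted for 24 h against 0 h, and from 45.0% to 33.3% with the 75th percentile and 34.5% with the median for 72 h against 0 h. It went from 40.2% to 15.7% past 4-fold for 96 h against 0 h, from 50.5% to 69.0% past 4-fold for 72 h against 24 h, from 45.6% to 58.0% with the 75th percentile for 96 h against 72 h, and from 45.0% to 56.0% without the floor for 96 h against 24 h. Of the 8 nearest named probes, 3 were found when candidates had to be well above background on all 4 arrays, M13680, Gm17089 and Dhrs3. No paired analysis was possible because each time point had 1 array, and for the same reason no replicate could be left out.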
